A study of Mus musculus with 62 samples.

Results

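The subject of this report is the set of wide H3K9me3 sites, the sites at least 2500 bp long in the comparison of Daxx-KO with WT haematopoietic stem and progenitor cells (HSPCs) at 24 weeks post induction (w.p.i.). They were chosen from the authors' table of differing sites by length alone, and 480 of the 150482 listed sites (0.319%) had this length. A site was gained where the mean normalized count of the Daxx-KO libraries was above that of the WT libraries and lost where it was below. By that rule 245 wide sites were gained and 235 were lost, against 48.1% gained and 51.9% lost among all listed sites. Length and direction are measured values of this contrast, so both are given as descriptions and not as results.

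H3K9me3 is trimethylation of lysine 9 of histone H3, the mark of constitutive heterochromatin. It is laid down by methyltransferases such as Setdb1 and Suv39h1, is read by HP1 proteins and keeps repeats silent. Large tracts of it also lie over clusters of KRAB zinc-finger genes, whose products bind retroelements and recruit the silencing machinery. Daxx is a chaperone that, with Atrx, places the histone variant H3.3 at repeats and other heterochromatin.

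All mice were C57BL/6 by their labels. The Daxx-KO animals carried Daxx F/F, a conditional allele in which exons of Daxx are flanked by loxP sites, and the WT animals carried Daxx +/+. The DKO animals used at 8 w.p.i. carried Daxx F/F and Pu.1 F/F, and so lacked the haematopoietic transcription factor Pu.1 (gene Spi1) as well. According to the methods, recombination was induced in adult mice with Mx1Cre and pI:pC or with Rosa26CreERT2 and tamoxifen, mice of both sexes were used, and HSPCs were bone-marrow cells depleted of mature lineages and enriched for c-Kit with magnetic beads. The driver of each library is not in the labels. The Daxx allele came from C57BL/6N and the Cre lines were C57BL/6J, so that the substrain around a gene cannot be told apart from the genotype. CUT&Tag, in which an antibody guides a transposase to a chromatin feature, was performed with 2 Daxx-KO and 2 WT libraries per antibody at 24 w.p.i., and the libraries for H3K9me3, H3K27me3, H3K27ac, H3.3 and Pu.1 carry the same 4 identification numbers in the labels, which are read here as 4 mice. Reads on the sex chromosomes had been removed there by the authors. H3K9me3 at 8 w.p.i. (3 Daxx-KO, 3 WT and 3 DKO libraries) and at 3 w.p.i. (2 Daxx-KO and 2 WT) came from other mice.

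The mean depth was 7.26 and 9.11 reads per 600-bp window in the Daxx-KO H3K9me3 libraries at 24 w.p.i. and 5.62 and 5.22 in WT. At 8 w.p.i. it was 0.2 to 3.29 and at 3 w.p.i. 1.21 to 3, so that the earlier tables could list fewer and shorter sites. A normalized count is the reads of a site divided by 1 constant per library. At Daxx itself, an H3K27ac site within the gene (chr17:33909801-33913400) had normalized counts of 113 and 93.7 in Daxx-KO against 858 and 368 in WT, and the sites on both flanks were higher in Daxx-KO. The targeted gene thus differed as labelled. H3K27ac sites were listed over the HSPC genes Kit, Cd34, Gata2 and Meis1 (all gained), over the neutrophil genes Ly6g, Camp, Ltf, Elane and Mpo (all gained) and over the erythroid genes Hba-a1 and Klf1 (both lost), and no wide H3K9me3 site lay over any of the 26 marker genes examined. The part of cell composition in the results was not tested. Bulk libraries cannot tell fewer marked cells from less mark per cell.

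The sequences of 4 wide sites show what kind of DNA a group of the lost sites covered. Zinc-finger proteins of the C2H2 class carry rows of finger repeats joined by a conserved linker, and the consensus ACNGGNGANAANCCNT, searched on both strands, is the DNA that codes for it, with N where the codons of a residue differ. The runs below are GRCm38 (mm10) sequence from RefSeq, read in the sense of the fingers, with matches in capitals. Gm13212 (chr4:145622755-145622962, plus strand), Zfp97 (chr17:17145337-17145544, plus strand) and Zfp534 (chr4:147674905-147675112, minus strand) lie in lost sites, and Zscan20 (chr4:128585693-128585900, minus strand) lies in a gained one.
Gm13212: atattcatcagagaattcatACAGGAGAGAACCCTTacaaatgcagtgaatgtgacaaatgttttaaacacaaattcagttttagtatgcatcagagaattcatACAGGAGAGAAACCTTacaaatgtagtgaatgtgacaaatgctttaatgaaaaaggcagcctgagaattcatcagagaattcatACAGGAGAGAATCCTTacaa
Zfp97: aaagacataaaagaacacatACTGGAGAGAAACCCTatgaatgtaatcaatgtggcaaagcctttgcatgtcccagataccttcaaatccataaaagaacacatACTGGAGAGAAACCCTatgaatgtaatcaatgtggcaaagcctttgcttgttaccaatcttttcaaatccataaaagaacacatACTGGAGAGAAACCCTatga
Zfp534: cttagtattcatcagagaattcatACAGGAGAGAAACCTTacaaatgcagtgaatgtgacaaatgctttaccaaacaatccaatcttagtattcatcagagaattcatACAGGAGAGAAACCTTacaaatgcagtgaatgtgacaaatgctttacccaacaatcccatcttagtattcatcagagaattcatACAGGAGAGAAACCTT
Zscan20: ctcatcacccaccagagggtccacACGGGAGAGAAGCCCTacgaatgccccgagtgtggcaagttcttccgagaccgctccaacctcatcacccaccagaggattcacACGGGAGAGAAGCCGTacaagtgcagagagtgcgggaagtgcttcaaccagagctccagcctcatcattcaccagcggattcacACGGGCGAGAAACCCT
In each run the motif occurs 3 times. The whole sites held 20 matches at Gm13212, 14 at Zfp97, 9 at Zfp534 and 4 at Zscan20. Over all wide sites, neighbouring matches stood most often 84 bases apart, the length of 1 finger with its linker, in 145 of 190 cases.

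Across the 480 sites, the gained ones covered 930950 bp and the lost ones 779650 bp, with median lengths of 3050 and 2900 bp and maxima of 17600 and 10850 bp. At every wide site both libraries of one group were above both of the other (245 of 245 gained and 235 of 235 lost, against 97.6% and 96.9% of all listed gained and lost sites). This separation rests partly on the authors' scaling. With the libraries set to an equal median count, 229 gained and 190 lost sites kept their groups apart, and with reads divided by the mean reads per window 161 and 150 did, while no site changed direction under either. The median log2 ratio of Daxx-KO over WT was 1.38 for the gained and -1.19 for the lost sites. With 2 libraries per group, an exact two-sided permutation test at 1 site cannot give a p below 0.333, so the values of each library are given in place of a test. The length threshold cuts through a continuous range, with 34 sites at 2450 bp and 24 at 2500 bp. Just under it lay chr15:76182601-76185050 (Daxx-KO 2608 and 2052, WT 895 and 1459), and exactly at it chr2:181929001-181931500 (Daxx-KO 325 and 405, WT 1317 and 1149).

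**Figure D1:**
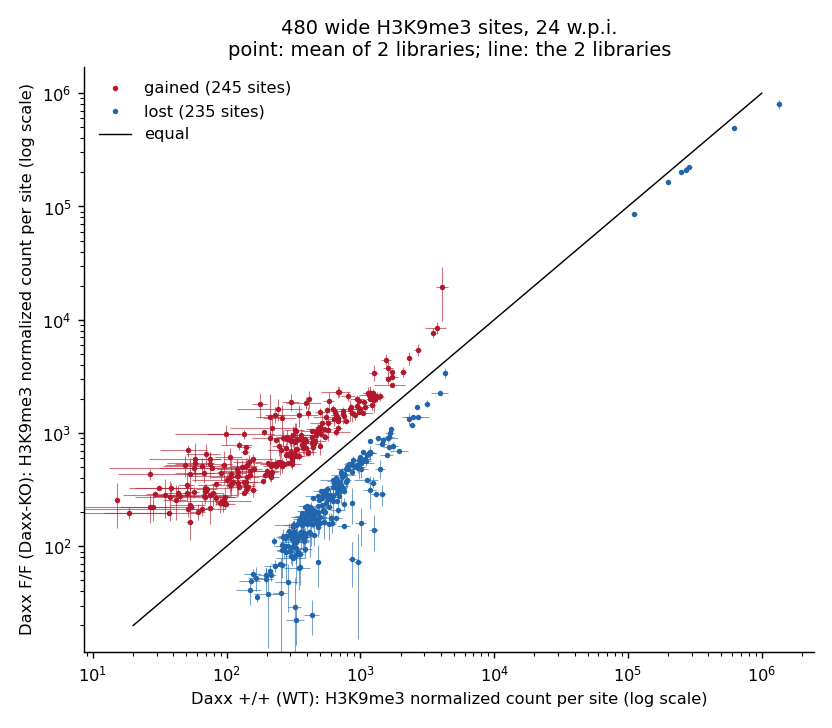
Mean H3K9me3 normalized count of each of the 480 wide sites in WT (horizontal, log scale) and Daxx-KO (vertical, log scale), with lines that join the 2 libraries of a group (a line that leaves the axis has a library at 0). The 245 gained sites lie above the line of equality and the 235 lost sites below it, and the lost sites at the far right are the satellite-rich ones.

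The gained sites were crowded onto a single chromosome. Chromosome 17 held 103 of the 245 wide gained sites (42.0%) but 4.48% of all listed gained sites, and 14 of the 235 wide lost sites. Chromosome 12 held 39 gained and 10 lost sites, and chromosome 4 held 17 gained and 34 lost. With sites of one direction no more than 100 kb apart taken as a group, 155 gained sites fell into 25 groups of at least 2 sites and 81 lost sites into 27. Within 5 Mb of Daxx, which lies on chromosome 17 at 33909414 to 33915590, there were 5 wide gained and 2 wide lost sites (2.04% and 0.851%, against 0.473% and 0.336% of all listed gained and lost sites). Within 5 Mb of Spi1 on chromosome 2 there was none in either direction, against 0.452% and 0.768% of all listed gained and lost sites. With shares this low, none is also possible among 245 or 235 sites, so this absence is not read as a trait of the wide sites.

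**Figure D2:**
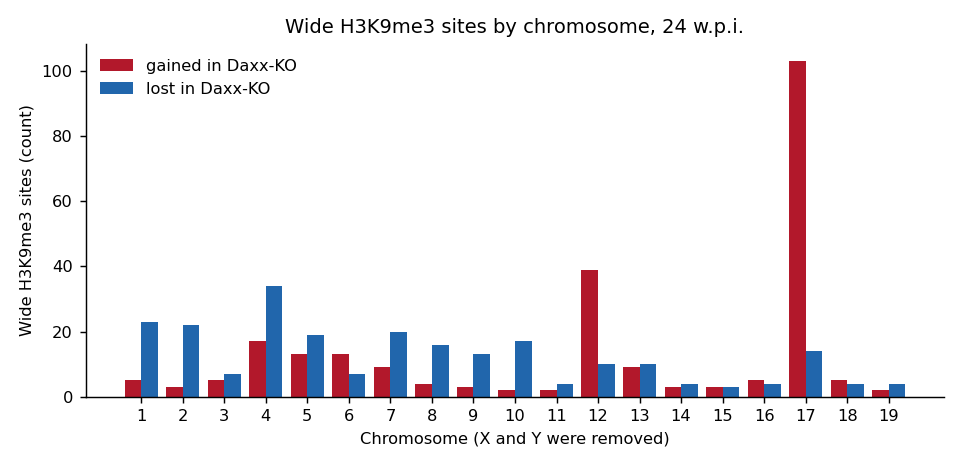
Number of wide H3K9me3 sites gained (red) and lost (blue) in Daxx-KO on each autosome at 24 w.p.i. Chromosome 17 holds 103 gained sites, chromosome 12 holds 39, and chromosome 4 holds the most lost sites, 34.

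3 groups on proximal chromosome 17 lay within 2.34 Mb and together held 83 of the gained sites (33.9%) and 412 kb, or 44.3%, of the bases covered by gained sites. No wide lost site lay between them, and their end was 19.4 Mb from Daxx. The substrain of each mouse over this tract is not in the labels, so that a strain difference there and the Daxx genotype cannot be told apart. The largest group (chr17:13026251-13723700) had 50 sites over and between Sod2, which codes for the mitochondrial superoxide dismutase, the t-complex genes Tcp10b, Tcp10c and Tcte2, Unc93a, and the sperm motility kinase genes Smok2b and Smok4a. The summed normalized counts of these 50 sites were 98343 and 80863 in Daxx-KO against 39125 and 41137 in WT, 2.23 times as many on average. That the sums did not overlap follows from the single sites, each of which had its libraries apart. The Tcp10 and Smok genes have close copies, so the assignment of reads to them is uncertain.

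The second group (chr17:13922851-14500050) had 28 sites over Dact2, an antagonist of Wnt signalling, and Smoc2, which codes for a secreted calcium-binding matrix protein, and over the non-coding gene Gm49720. Its sums were 19735 and 13452 in Daxx-KO against 3819 and 2120.49 in WT, a ratio of 5.59. The third (chr17:12163451-12283600) had 5 sites over Agpat4, an acyltransferase of phospholipid synthesis, and Map3k4, a kinase of the stress-activated MAPK pathways. Its sums were 7178 and 4754 in Daxx-KO against 1205 and 886 in WT, a ratio of 5.71. In the second group and the third the 2 Daxx-KO libraries differed from each other by more than in the first, yet both stood well above WT.

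Single sites show the size of these tracts. The widest site of the table was a gain of 17600 bp over coding exons of Unc93a (chr17:13112751-13130350), with 4999 and 3892 normalized counts in Daxx-KO against 1435 and 1681 in WT, a log2 ratio of 1.51. The site over the non-coding gene AC166110.4 (12100 bp) had 8417 and 6912 in Daxx-KO against 3347 and 3664 in WT. A gain of 11200 bp over Gm49720, 5 kb from Smoc2, had 2214 and 1560.25 in Daxx-KO against 347 and 259 in WT, and one of 9600 bp over coding exons of Smoc2 had 1783 and 933 in Daxx-KO against 330 and 188 in WT. At Map3k4, a site of 9050 bp had 2299 and 1516 in Daxx-KO against 631 and 528 in WT, and a second site of 3000 bp had 482 and 389 in Daxx-KO against 15.5 and 37.5 in WT, a log2 ratio of 4.04. As at every wide gained site, both Daxx-KO libraries were above both WT libraries. The ratios of these sites were larger in the second group and the third than in the first.

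The same tracts were listed as gains in other mice at the earlier times. Of the 50 sites of the largest group, 46 overlapped a gain and 0 a loss at 8 w.p.i., and 40 overlapped a gain and 0 a loss at 3 w.p.i. In the second group 25 of 28 overlapped a gain at 8 w.p.i. and 26 of 28 at 3 w.p.i., with 0 losses at both. The groups were drawn from gains of the 24 w.p.i. comparison, so a high share of gains there follows from the choice. Counting every listed site inside the 3 groups, whatever its length, that share was 98.2% (378 of 385). In the other mice it was 98.6% at 8 w.p.i. (344 of 349) and 96.2% at 3 w.p.i. (300 of 312). Of all autosomal listed sites at these 2 times, 66.0% and 78.9% were gains. On the rest of chromosome 17 the shares at 8 and 3 w.p.i. were 67.8% and 77.1%. The sums over listed sites separated the groups in the second group but not always in the largest. Over the sites listed in the largest group they were 15059.94, 15763 and 11586 in Daxx-KO against 5528, 4633 and 6287 in WT at 8 w.p.i., but 13308 and 12314 in Daxx-KO against 17805 and 11184 in WT at 3 w.p.i., where the libraries of the groups overlapped although 131 of the 141 listed sites were gains. Over the second group at 8 w.p.i. the normalized counts were 4845, 4861 and 4331 in Daxx-KO against 232, 254 and 628 in WT.

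H3K27me3, the Polycomb mark of facultative silencing, went the other way over these groups in the same mice. All 318 H3K27me3 sites listed inside the 3 groups at 24 w.p.i. were losses, against 58.8% of all autosomal H3K27me3 sites and 64.2% on the rest of chromosome 17. Their summed counts in the largest group were 12171 and 15891 in Daxx-KO against 34269 and 29164 in WT, and in the second group 5862 and 11774 in Daxx-KO against 28622 and 30551 in WT. H3K27ac, the mark of active enhancers and promoters, was also mostly lost there, at 175 of 207 listed sites (84.5%, against 57.5% of all autosomal H3K27ac sites). H3.3 was gained at 149 of 334 listed sites (44.6%, against 52.6%) and Pu.1 at 132 of 333 (39.6%, against 48.2%), so that neither moved in 1 direction. Over the Unc93a site all 6 H3K27me3 sites and all 5 H3K27ac sites at 24 w.p.i. were losses, while the 6 H3.3 sites were split between 3 gains and 3 losses.

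**Figure D3:**
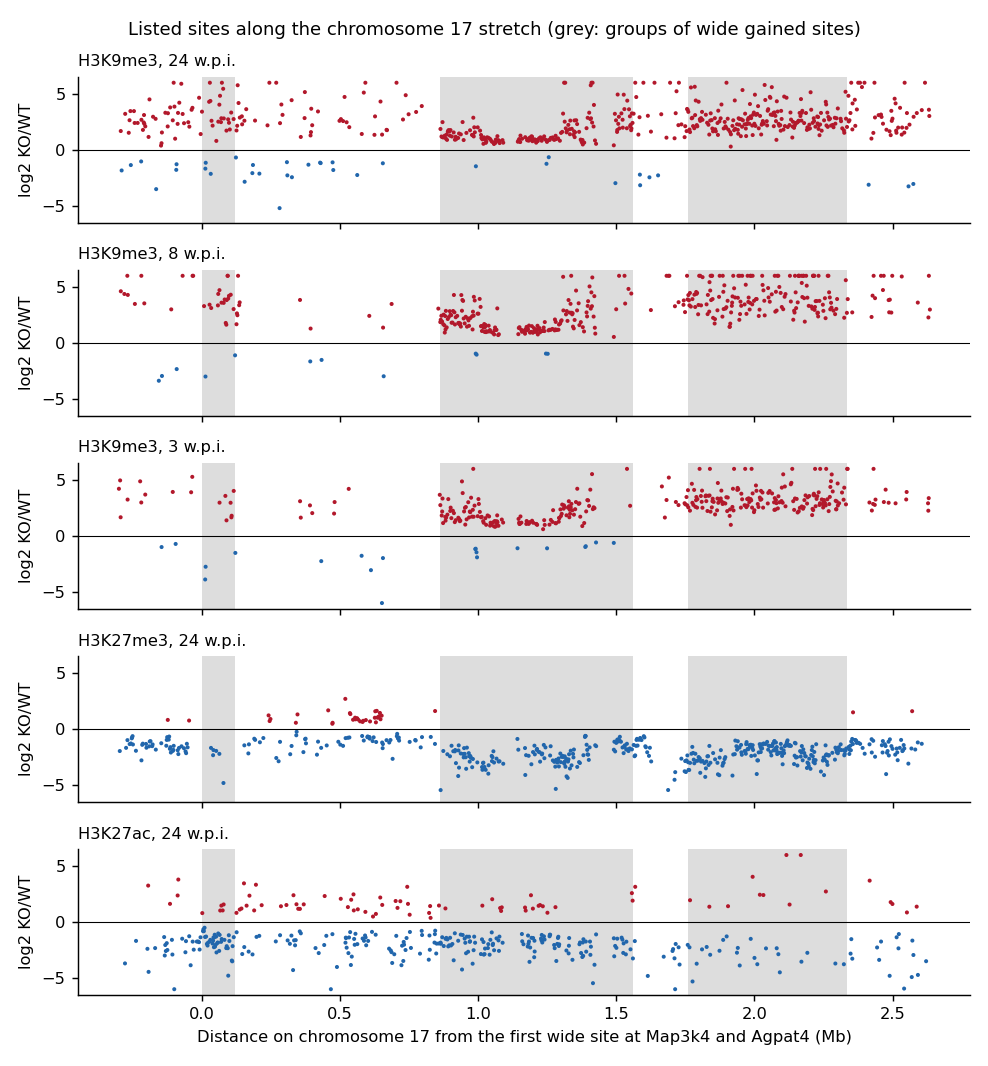
Log2 ratio of the mean normalized count, Daxx-KO over WT, of every listed site along proximal chromosome 17 (ratios beyond the axis, and those with a group at 0, are drawn at its limit), with gains in red, losses in blue and the 3 groups of wide gained sites in grey. H3K9me3 sites in the grey groups lie above 0 at 24, 8 and 3 w.p.i. apart from a few, and the 318 H3K27me3 sites there all lie below 0.

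The 8 w.p.i. comparison of DKO with WT, which shares its WT libraries with the Daxx-KO comparison, listed these groups unequally. In the largest group it listed 107 gains and 1 loss, in the second 3 gains and no loss, and in the third 1 gain and 1 loss. Of all autosomal sites of this comparison 81.2% were gains. DKO compared directly with Daxx-KO gave 34 gains and 15 losses in the largest group, 6 gains and 35 losses in the second and 0 gains and 12 losses in the third, against 72.9% gains among all its autosomal sites. Over the 12 sites of the third group, DKO had 22.4, 58.8 and 84.6 normalized counts and Daxx-KO 726, 660.31 and 534. In the second group and the third, more sites were thus listed below Daxx-KO in DKO than above it. The DKO libraries were uneven in depth, with 0.67, 0.21 and 3.28 reads per window, and the part of depth in these counts was not tested.

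Other gained groups were smaller. The next by sites was a stretch of 275 kb over Csmd2, a gene of a large membrane protein with CUB and sushi domains (chr4:128018101-128293500), with 8 sites and sums of 5579 and 4685 in Daxx-KO against 1993 and 1964 in WT. A further group had 8 sites near the non-coding genes Gm31508 and Gm31333 (chr12:28998701-29370550), with 5157 and 4786 in Daxx-KO against 2361 and 2012 in WT. A group of 7 sites was at Piwil1, which codes for a germline Argonaute protein (chr5:128477301-128712900), with 3436 and 3512 in Daxx-KO against 1739 and 1699.78 in WT. In these 3 groups the listed sites were 113 gains and 16 losses, 125 gains and 10 losses, and 73 gains and 8 losses at 24 w.p.i. These groups too were drawn from 24 w.p.i. gains. At 8 w.p.i., in other mice, they held 83, 57 and 62 gains with no loss, against 66.0% gains among all autosomal listed sites. Between 18 and 31 Mb of chromosome 12 there were 33 wide gained and 2 wide lost sites. Groups of 4 sites were found at Zfp125 and 3110053B16Rik on chromosome 12 (2405 and 2491 in Daxx-KO, 723 and 770.24 in WT) and at Unc93a2 on chromosome 17 (2998 and 3008 in Daxx-KO, 1189 and 1309 in WT). In the group at Zfp125, 67.1% to 88.7% of the 32-base words of a site occur more than once in the genome. The assignment of reads to these sites is thus uncertain. 2 wide lost sites lay over Zfp125 and 3110053B16Rik as well. One (chr12:20894301-20897100) had 522 and 625 in Daxx-KO against 863 and 909.86 in WT, and the other (chr12:20901451-20904050) had 166 and 147 in Daxx-KO against 439.92 and 435 in WT.

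Outside chromosome 17, the highest ratios among gained sites were at Aatk, which codes for an apoptosis-associated kinase (chr11:120010601-120013450), with 146 and 362 in Daxx-KO against 15.5 and 15.0 in WT, and at Zc3hav1, which codes for the antiviral zinc-finger protein ZAP (chr6:38314251-38316750), with 791 and 615 in Daxx-KO against 71.5 and 31.9 in WT. The Zc3hav1 site was 1 of a group of 3 gained sites. Under it single sites of 8 and 3 w.p.i. were also gains, with log2 ratios of 2.88 and 2.20. At Aatk no H3K9me3 site was listed at either time, and 3 H3K27me3 sites at 24 w.p.i. were losses. A short gain in an intron of Lyst, the lysosomal trafficking regulator (chr13:13752401-13755150), carried 9639.94 and 7424 counts in Daxx-KO against 3061 and 4352 in WT, among the highest counts of the gained sites. In this site 67.1% of the 32-base words occur more than once in the genome, so the assignment of reads to it is uncertain.

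The gain with the most counts (chr1:24611051-24616700) had 9691 and 29303 in Daxx-KO against 4489 and 3643 in WT, and the first Daxx-KO library was nearer to WT than to the second. It lies over pseudogenes of mitochondrial sequence, and it was the 1 wide site in which at least 50% of the 32-base words are found in the mitochondrial genome. H3.3 gave almost the same counts over the same bases, 10071 and 29575 in Daxx-KO against 3557 and 3754 in WT, and Pu.1 gave 8064 and 20752 in Daxx-KO against 3500.33 and 1895 in WT. With these 3 antibodies the second Daxx-KO library was the highest and both WT libraries the lowest, whereas H3K27me3 over the same bases had 707 and 821 in Daxx-KO against 2862 and 1494 in WT.

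A gain of 5000 bp covered the start of Fbp2, the muscle form of the gluconeogenic enzyme fructose-1,6-bisphosphatase (chr13:62853801-62858800). Its counts were 2345 and 1614 in Daxx-KO against 424 and 399 in WT, a log2 ratio of 2.27. 2 shorter gains lay under it at 8 w.p.i. (44.3, 46.9 and 29.4 in Daxx-KO against 3.16, 5.06 and 2.5 in WT at the first) and 2 at 3 w.p.i. (54.6 and 58.3 in Daxx-KO against 14.0 and 22.0 in WT at the first). An H3K27me3 site inside it was lost at 24 w.p.i., with 11.2 and 53.4 in Daxx-KO against 134 and 168 in WT. The promoter under this site is shown because the site covers it whole. It is chr13:62858351-62858650, minus strand, from RefSeq on GRCm38, from 250 bases before to 50 after the start, with its 6 CpG dinucleotides in capitals.
Fbp2 promoter: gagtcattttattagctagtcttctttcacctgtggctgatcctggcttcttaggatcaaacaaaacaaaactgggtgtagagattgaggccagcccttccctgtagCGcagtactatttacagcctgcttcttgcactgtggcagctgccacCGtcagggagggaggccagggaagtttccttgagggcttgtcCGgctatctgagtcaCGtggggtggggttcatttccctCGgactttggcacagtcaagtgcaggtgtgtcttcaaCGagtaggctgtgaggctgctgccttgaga

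Usp29, an imprinted gene of the Peg3 cluster, had 2 wide gains (chr7:6838001-6840750, with 485 and 543 in Daxx-KO against 187 and 278 in WT, and chr7:6842051-6845200, with 203 and 296 in Daxx-KO against 101 and 87.1 in WT). Both overlapped gains at 8 w.p.i. The imprinted gene Mest had a wide gain with groups close to each other (chr6:30735251-30738350, 1084 and 941 in Daxx-KO against 479 and 839 in WT), and Impact, also imprinted, had one as well. These 4 sites make 1.63% of the wide gains, against 0.14% of all listed gains. They lie at 3 genes, 2 of them side by side in Usp29, and a wide site has more bases in which to meet a gene. No share was computed for this list among sites of nearer length. Single wide gains were at Clec2e, a lectin receptor gene, and Foxn3, a forkhead gene. Ifi213, of the interferon-induced list, had 1 wide loss (0.426% of wide losses, against 0.0269% of all listed losses). No wide site in either direction lay over an olfactory receptor, vomeronasal receptor, clustered protocadherin, histone or MHC gene of the lists used. The same held for the Hox, keratin, cytochrome P450 and stem-cell regulator genes and those for H3K9 methylation and repeat silencing. Each of these lists lay under at most 0.293% of all listed gained or lost sites. At shares this low 245 or 235 sites can hold none, so the absence is not read as a trait of the wide sites.

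Lost sites were less clustered. The widest was a loss of 10850 bp over coding exons of Ttn, the gene for the giant sarcomere protein titin (chr2:76713251-76724100), with 225 and 351 in Daxx-KO against 1565 and 1351 in WT, a log2 ratio of -2.34. It was 1 of a group of 7 lost sites over the coding exons of this gene (chr2:76708851-76750700), whose sums were 1195 and 1617 in Daxx-KO against 5236 and 4922 in WT. The loss was also listed earlier, as 1 site at 8 w.p.i. (237, 176 and 182 in Daxx-KO against 1593, 1477 and 1519 in WT) and 1 at 3 w.p.i. (69.8 and 73.3 in Daxx-KO against 1493 and 1722 in WT). No gain was listed in this group at any of the 3 times, and none in DKO against WT at 8 w.p.i. (0 gains and 7 losses).

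Several of the other long losses lay in introns. Smyd3, which codes for a SET-domain methyltransferase, had a lost site of 7950 bp (chr1:179431251-179439200), with 273 and 302 in Daxx-KO against 1200.06 and 1436 in WT, and beside it one of 3150 bp with the lowest ratio of all, 16.6 and 33.4 in Daxx-KO against 493 and 379.50 in WT, a log2 ratio of -4.13. Cdyl2, which codes for a chromodomain protein that binds H3K9me3, had a loss of 6550 bp (chr8:116665751-116672300), with 100.10 and 219 in Daxx-KO against 1104 and 914 in WT. Arl15, a small GTPase gene, had one of 6200 bp (chr13:113914201-113920400), with 15.3 and 129 in Daxx-KO against 1028 and 901 in WT. Sorcs2, a sortilin-family receptor gene, had a loss of 5100 bp with 44.0 and 109 in Daxx-KO against 805 and 937 in WT, and over most of the same bases an H3K27ac site had 2405 and 2458 in Daxx-KO against 342 and 369 in WT, and an H3K27me3 site 302 and 642 in Daxx-KO against 63.5 and 28.6 in WT. Nrros, expressed in myeloid cells as a partner of latent TGF-beta, had a loss of 5950 bp across a coding exon (91.2 and 188 in Daxx-KO, 1352 and 1159 in WT). All 5 were listed as losses at 8 and at 3 w.p.i., with the Daxx-KO libraries at 0 to 74.1 counts there, and the DKO libraries were also below WT at 8 w.p.i. at each. Zfhx3, a homeobox transcription factor gene, had 4 lost sites over an intron and coding exons (2087 and 2141 in Daxx-KO, 3917 and 4972 in WT over the group), again lost at 8 and 3 w.p.i.

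**Figure D4:**
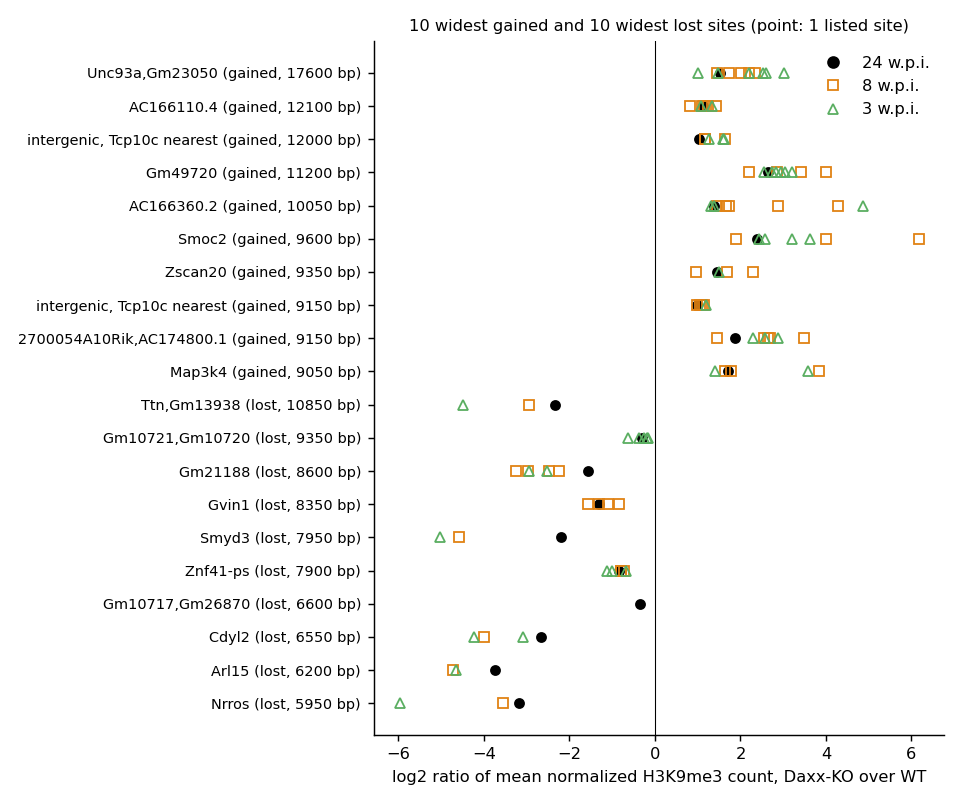
Log2 ratio of mean H3K9me3 normalized count, Daxx-KO over WT, at the 10 widest gained and 10 widest lost sites (black circles, 24 w.p.i.), with each overlapping listed site at 8 w.p.i. (squares) and 3 w.p.i. (triangles). Every drawn earlier site lies on the same side of 0 as its 24 w.p.i. site, and the satellite site at Gm10717 has no earlier listed site.

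The most counts of all wide sites lay in tandem repeats. At the start of chromosome 9 a group of 6 lost sites (chr9:3002751-3038700) had sums of 1432031 and 1334312 in Daxx-KO against 1801541 and 1668474 in WT, and at chr2:98662301-98666700 the counts were 728682 and 870368.50 in Daxx-KO against 1399608 and 1278097 in WT. The chromosome 9 ratios were small (log2 -0.37 to -0.30 per site), and the groups were apart under the authors' scaling only. With libraries set to an equal median count, or with reads divided by the mean reads per window, the chromosome 9 sums of the groups overlapped. H3K27ac was also lower over these repeats at 24 w.p.i. The 2 H3K27ac sites listed in the chromosome 9 group had 41573 and 74345 in Daxx-KO against 134895 and 137260 in WT. On chromosome 2 an H3K27ac site had 69780 and 123959 in Daxx-KO against 214519 and 234405 in WT. Listed H3K27me3 sites at both places were losses and listed Pu.1 sites were gains. The 1 H3.3 site, in the chromosome 9 group, was a gain. The deposited values cannot say which copies of a repeat the reads came from. 1 repeat unit of the widest of these sites (chr9:3018176-3018409, plus strand, GRCm38) is shown because it recurs through the site. Bases 234 apart were equal in 70.6% of cases, and the 12-base word in capitals occurred 76 times.
chromosome 9 tandem repeat, 1 unit: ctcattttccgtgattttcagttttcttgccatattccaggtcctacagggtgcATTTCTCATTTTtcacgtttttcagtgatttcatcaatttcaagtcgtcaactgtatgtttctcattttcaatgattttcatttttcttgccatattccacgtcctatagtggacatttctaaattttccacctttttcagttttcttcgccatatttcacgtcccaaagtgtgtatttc

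Zinc-finger genes were the family under the most lost sites. 15 lost sites (6.38%, 95% Wilson interval 3.91 to 10.3) lay over 12 of the 423 listed zinc-finger genes, against 0.904% of all listed lost sites, and 3 gained sites (1.22%, 0.417 to 3.54) lay over Zfp873, Zfp942 and Zscan20, against 0.792% of all listed gained sites. These intervals cover counting error only, neighbouring sites are not independent, and a wide site has more bases in which to meet a gene. The list held protein-coding genes only, so sites over Zfp125, in both directions, and over the pseudogene Znf41-ps are not in these counts. The 12 genes under lost sites were Zfp382, Zfp534, Zfp600, Zfp74, Zfp781, Zfp790, Zfp949, Zfp97, Zfp984, Zfp991, Zfp992 and Zfp993. The linker motif shown above, which does not depend on gene names, was in 21 of 235 lost sites (8.94%, against 0.42% of all listed lost sites) and in 3 of 245 gained sites (1.22%, against 0.0844%). Per Mb of site there were 267 matches in wide lost sites and 25.5 in all listed lost sites, and 6.45 in wide gained sites and 1.99 in all listed gained sites. Lost sites from 1500 bp up to the wide threshold had 161 matches per Mb, and 4.10% of them held the motif. Gained sites of that length had 0.664 per Mb and 0.117%. Zinc-finger genes lay under 3.77% of these lost and 1.29% of these gained sites. The contrast of wide lost sites with lost sites of nearer length was thus smaller than with all listed ones. 9 of the 21 sites lay over a listed zinc-finger gene. The other 12 included Gm13212, Gm49357, BC024063, Gm5165, Gm6020, Gm10139, Gm3604 and Rbak, and the pseudogene Znf41-ps.

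Many of these lay on distal chromosome 4, where 19 wide lost and 0 wide gained sites fell between 145 and 148 Mb. At Znf41-ps (chr4:145821801-145829700, 7900 bp) the counts were 1413 and 1377 in Daxx-KO against 2055 and 2903 in WT, and its group of 5 sites had 4960.24 and 4659 in Daxx-KO against 7387 and 8686 in WT. The group at Zfp992 (chr4:146460951-146479850) had 4424 and 4143 in Daxx-KO against 7382 and 8252 in WT, and that at Zfp991 (chr4:147172251-147192500) had 4313 and 3994 in Daxx-KO against 6551 and 7301 in WT. At Zfp534, whose sequence is shown above, the counts were 228 and 186 in Daxx-KO against 439.92 and 481 in WT. The largest differences of the family were on chromosome 7, at Zfp74 (131 and 191 in Daxx-KO, 605 and 625 in WT), Zfp790 (191 and 231 in Daxx-KO, 766 and 594 in WT) and Zfp382 (105 and 114 in Daxx-KO, 354 and 311 in WT). At Zfp97 on chromosome 17 the counts were 189 and 207 in Daxx-KO against 410.38 and 440.40 in WT. At 3 w.p.i. the listed sites at Zfp534 (log2 ratio 1.08, 1 site) and Gm13212 (median 1.36, 3 sites) were gains. At 24 w.p.i. the log2 ratios of the family ran from -0.48 at Zfp600 to -1.93 at Zfp74. Their sequences are close copies of each other, so the assignment of reads among them is uncertain. Zscan20 went the other way, with 3968 and 2865 in Daxx-KO against 1150.32 and 1359 in WT over 9350 bp (chr4:128578751-128588100), and all its listed sites at 8 and 3 w.p.i. were gains.

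What the gained and lost sites had in common beyond their length differed between the directions. Repeats of the reference covered a median of 19.3% of a gained and 41.3% of a lost site, against 20.3% and 30.6% among all listed gained and lost sites. 90 gained (36.7%) and 128 lost sites (54.5%) had at least 50% of their 32-base words more than once in the genome. Among sites from 1500 bp up to the wide threshold, 17.8% of gained and 31.6% of lost sites did, and no share was computed for all listed sites. The ratio of observed to expected CpG was 0.193 in gained and 0.320 in lost sites (0.182 and 0.161 among all listed). Protein-coding genes were overlapped by 100 gained sites (40.8%, against 46.2% of all listed gained sites) and 118 lost sites (50.2%, against 32.9%), and a start of such a gene lay in 5 gained (2.04%, against 1.83%) and 8 lost sites (3.40%, against 0.828%). Of the starts in lost sites all but that of Catsperg1 belonged to predicted genes, several of them in the chromosome 9 repeats. Intergenic sites made 39.2% of the gained and 39.1% of the lost sites.

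A region of 59.9 kb on chromosome 4 (chr4:153708351-153768200), with no gene under its 5 wide lost sites, also had listed sites of other marks. H3K9me3 sums were 2418 and 1829 in Daxx-KO against 3585 and 4834 in WT. All 14 H3K27me3 sites listed there were gains, with 1091 and 1395 counts in Daxx-KO against 366 and 244 in WT. Of all autosomal H3K27me3 sites 41.2% were gains. H3K27ac had 6 gains and 1 loss in this region, against 42.5% gains among all autosomal sites. At the Zfhx3 group the 1 listed H3K27me3 site was a gain too. At 3 w.p.i. all 13 listed H3K9me3 sites of the region were losses, against 21.05% of all autosomal sites. At 8 w.p.i. 5 were gains and 2 were losses, against 66.0% gains among all autosomal sites. The direction was thus not the same at all times.

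Across all wide sites, direction was mostly the same in the other mice at the earlier times. At 8 w.p.i., 172 of 245 wide gained sites (70.2%, 64.2 to 75.6) overlapped a gain by at least 1 bp, against 8.64% of all listed gained sites, and 6 overlapped a loss, against 2.03%. At 3 w.p.i. 140 (57.1%, 50.9 to 63.2) overlapped a gain, against 5.51%, and 7 a loss, against 1.76%. Of the 235 lost sites, 155 (66.0%, 59.7 to 71.7) overlapped a loss at 8 w.p.i., against 6.71%, and 12 a gain, against 8.31%. At 3 w.p.i. 168 (71.5%, 65.4 to 76.9) of them overlapped a loss, against 4.79%, and 16 a gain, against 6.19%. A longer site meets more sites by its length alone, so the shares of direction are the fairer measure. Of the sites with listed overlaps of 1 direction only, 97.7% of the gained were gains at 8 w.p.i. (170 of 174) and 95.9% at 3 w.p.i. (139 of 145), against 81.5% and 76.0% for all listed gained sites. Of the lost sites, 93.9% were losses at 8 w.p.i. (153 of 163) and 91.8% at 3 w.p.i. (167 of 182), against 44.6% and 43.6% for all listed lost sites. DKO against WT at 8 w.p.i. gave a gain at 106 gained sites (43.3%, against 5.82%) and a loss at 151 lost sites (64.3%, against 3.9%), from WT libraries that the Daxx-KO comparison also uses.

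Among the readouts from the same mice at 24 w.p.i., H3K27me3 differed most in direction from H3K9me3 at gained sites. Of the 108 gained sites with H3K27me3 sites of 1 direction only, 5 had gains and 103 losses, that is 4.63% gains (1.99 to 10.4), against 33.7% for all listed gained sites. Without the 2 largest chromosome 17 groups 5 of 46 had gains (10.9%). For H3K27ac 32 had gains and 70 losses (31.4%, 23.2 to 40.9), against 46.8%, and without these groups the share was 44.1%. H3.3 gains made 55.1% (46.1 to 63.8), against 51.6%, and Pu.1 gains 39.0% (30.7 to 48.0), against 42.9%, so for these the interval holds the share of all listed sites. At lost sites the shares of gains were 55.9% for H3K27me3 (39.5 to 71.1, 34 sites), 44.6% for H3K27ac (33.2 to 56.7, 65 sites), 61.6% for H3.3 (51.1 to 71.2, 86 sites) and 50.6% for Pu.1 (40.2 to 60.96, 85 sites), against 41.2%, 48.8%, 52.5% and 46.5%. Apart from H3K27me3 and H3K27ac at gained sites, each of these intervals held the share of all listed sites.

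**Figure D5:**
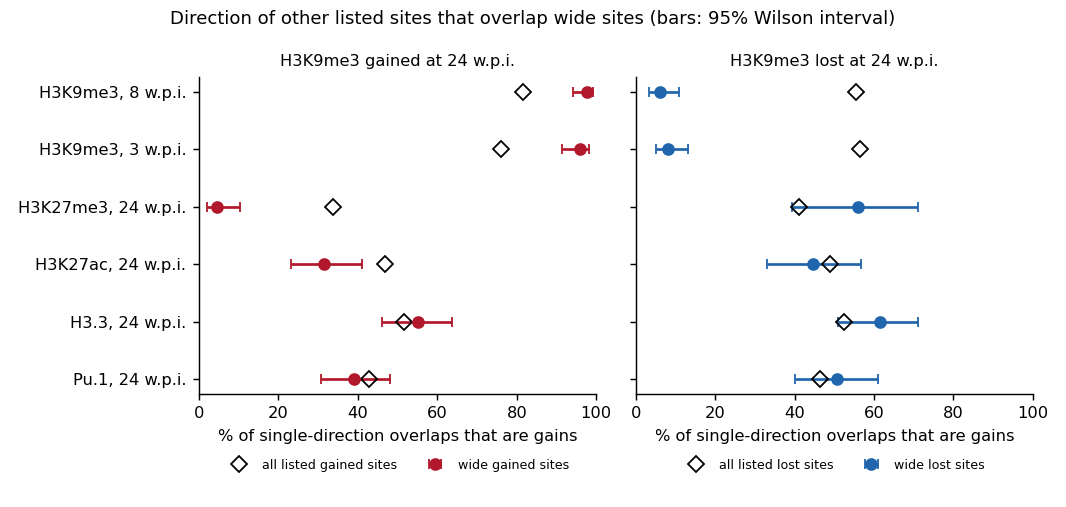
Share of gains (horizontal, percent) among wide gained (left) and wide lost (right) sites that overlap listed sites of 1 direction only, with 95% Wilson intervals that cover counting error only, for H3K9me3 at 8 and 3 w.p.i. and 4 other readouts at 24 w.p.i., and the same share for all listed sites (diamonds). H3K9me3 follows the direction at 24 w.p.i. (97.7% and 95.9% gains at gained sites), and H3K27me3 at gained sites lies at 4.63%.

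At 3 w.p.i., in other mice, the other readouts were mostly gained over the lost sites. H3.3 sites of 1 direction were gains at 84 of 96 lost sites (87.5%, 79.4 to 92.7, against 60.0% of all listed lost sites). For Pu.1 they were gains at 79 of 95 (83.2%, 74.4 to 89.4, against 57.3%) and for H3K27ac at 33 of 45 (73.3%, 59.0 to 84.0, against 43.2%). At gained sites H3.3 gains made 67.5% at 3 w.p.i. (58.9 to 75.0), against 67.9%. Pu.1 gains made 70.0% there (91 of 130, against 66.4%) and H3K27ac gains 25.7% (19 of 74, against 33.7%). In the H3.3 and Pu.1 tables of 3 w.p.i. the 2 WT libraries differed widely in depth, with 22.88 and 3.06 reads per window for H3.3 and 33.78 and 2.75 for Pu.1, and the part of this in the shares was not tested.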

How the data were processed

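CUT&Tag of HSPCs was analysed from 12 tables of the authors, in which 2 or 3 libraries of one genotype are compared with as many of another. Per the labels and the file headers, reads were mapped to mm10 and compared with diffReps 1.55.6 (600-bp windows, 50-bp steps, 100-bp fragments, negative binomial test, window p-value under 0.0001). The submitters' processing notes also name CASAVA 1.8.4, cutadapt 1.13, STAR 2.5.3 and bedtools. The values the authors deposited for each site and library are normalized counts, that is reads divided by 1 constant per library given in the file headers. Below 150 reads, 100% of values multiplied back were whole within 0.05 reads. Columns of the authors' log2 fold changes, p-values, adjusted p-values and window statistics were not read. The tables hold no site that failed the authors' test, so no test was made across sites, a region with no site has no value, and a missing overlap is no evidence of no change.

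Sites of at least 2500 bp were taken, with direction from the group means. Named sites were the 10 widest, the 5 with most counts and the 5 with the largest ratio per direction, up to 8 groups (gaps of at most 100 kb) per direction and every wide site over a gene of the lists. Members and lists were chosen with earlier results of these data known. Genes came from GENCODE M21 and sequence from RefSeq on GRCm38, with repeats as its lower-case bases. An overlap was at least 1 bp. 32-base words were taken every 8 bases. Shares have 95% Wilson intervals, which cover counting error only. Comparisons at 8 w.p.i. share libraries, and DKO libraries of 24 w.p.i. and H3K27me3 at 8 w.p.i. were not used here. Replicates carry separate identification numbers in the labels, read here as mice. The functions were tested on simulated sites, where 4 of 4 checks passed. Python 3.11.15, numpy 2.4.6, pandas 2.3.3, scipy 1.17.1 and matplotlib 3.10.9 were used.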

Additional observations from a re-analysis of the deposited data

Results flagged for a closer look

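Some wide sites had the opposite direction in other mice at an earlier time, with the libraries of the 2 groups apart at both times. The difference between times was not tested. Among gained sites, 4 had only losses listed under them at 8 w.p.i. and 6 at 3 w.p.i. Among the 6 was Mest, with a log2 ratio of 0.62 at 24 w.p.i. and a median of -2.14 over 2 sites at 3 w.p.i. Cdk6, which codes for a cell-cycle kinase, had 0.61 at 24 w.p.i. and -1.67 at 3 w.p.i. Among lost sites, 8 had only gains listed at 8 w.p.i. and 15 at 3 w.p.i. An intron site of March1 had -1.86 at 24 w.p.i. and 2.01 at 8 w.p.i., Cntn4 had -1.06 at 24 w.p.i., 0.79 at 8 w.p.i. and 0.92 at 3 w.p.i., and Tiam1 had -1.26 at 24 w.p.i. and 1.16 at 3 w.p.i. The chromosome 2 repeat site with the most counts of all had -0.74 at 24 w.p.i. and 1.62 at 3 w.p.i.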

How the results depend on the processing

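No site among the 480 changed direction when libraries were rescaled to an equal median count or when reads were divided by the mean reads per window, though the sites that kept their groups apart fell to 229 gained and 190 lost and to 161 and 150. Leaving out 1 of the 4 libraries could not change a direction, since both libraries of one group were above both of the other at every wide site, and says nothing about stability. The counts and shares that moved beyond their counting interval, or by over 1.5 times, under the other settings were these. With a length of at least 2000 bp there were 570 gained and 621 lost sites, and with 3000 bp 133 and 106. Gained sites that overlapped a gain then made 52.5% and 81.2% at 8 w.p.i. and 39.8% and 70.7% at 3 w.p.i., and lost sites that overlapped a loss 48.3% and 75.5% at 8 w.p.i. and 48.8% and 79.2% at 3 w.p.i. Without the 2 largest chromosome 17 groups, an alternative chosen after seeing the data, gained sites with a gain made 60.5% at 8 w.p.i. and 44.3% at 3 w.p.i., and the share of gains was 10.9% for H3K27me3 and 44.1% for H3K27ac. Under 50% of repeat-masked bases 144 lost sites remained. Sites with under 50% of words found more than once, also chosen after seeing the data, numbered 155 gained and 107 lost. Among them the share of gains for H3K27ac at gained sites was 45.3%, zinc-finger genes lay under 2.80% of lost sites, 56.1% of lost sites had a loss at 8 w.p.i., and the share of gains at lost sites was 73.3% for H3K27me3 and 36.6% for Pu.1. The cause of these shifts was not tested.

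No paired analysis was possible because Daxx-KO and WT libraries came from different mice that share only a number, and no test was made across sites. A region with no listed site in the earlier tables has no value there.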
